A study of Homo sapiens with 8 samples.

Results

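The genes described here encode the proteins that start and run DNA replication, from the origin recognition complex to the replication fork. Of 50 genes chosen by name, 49 had a named probe set, out of 22458 named genes on the array. The exception, PRIM2, is not analysed here. The cells were Caco-2, a human colon cancer line of epithelial origin, and TC7, the variant used, is a single clone of it. The CRTC1 group, 4 arrays, came from subconfluent cells transfected overnight with 200 ng of a CRTC1 expression plasmid. The empty vector group, 4 arrays, received the same amount of the matching vector, pBS. CRTC1 is a coactivator of the transcription factor CREB. No source used here gives the share of cells that took up plasmid, and every value is an average over transfected and untransfected cells.

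Replication is prepared in G1, when the origin recognition complex, CDC6 and CDT1 load the ring-shaped MCM helicase onto DNA. In S phase CDC45 and the GINS complex activate the helicase, and polymerases copy both strands behind it with the sliding clamp PCNA. Many of these genes are transcribed at the G1/S transition under E2F transcription factors, so their mRNA is widely read as a sign of proliferation. In bulk RNA, fewer cells in S phase and less RNA per cell cannot be told apart.

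The values were log2 expression values deposited by the authors, with array medians between 4.11 and 4.15. CRTC1 itself lay at 12.52, 11.78, 11.70 and 11.46 on the CRTC1 arrays and at 5.48, 5.63, 6.30 and 6.19 on the empty vector arrays (limma adjusted p = 3.11e-05). It was the 1 gene of 22458 past an adjusted p of 0.05, a share of 0.00445%. Of the epithelial and intestinal markers 15 were measured, and their mean per array ran from 7.61 to 7.88 with CRTC1 and from 7.67 to 7.86 with empty vector. Among them the adhesion gene EPCAM averaged 10.25 with CRTC1 and 10.31 with empty vector, and the microvillus gene VIL1 averaged 9.51 with CRTC1 and 9.56 with empty vector. Below the median level of all genes lay KRT20, at 3.60 with CRTC1 and 3.35 with empty vector, and CDX1, at 4.03 with CRTC1 and 3.92 with empty vector. Leukocyte, fibroblast and endothelial markers had array means between 2.84 and 4.01. Among them COL1A1, THY1, LYZ and CD68 lay at or above the median level of all genes. With CRTC1 and with empty vector COL1A1 averaged 4.98 and 4.92, THY1 4.56 and 4.55, and LYZ 4.18 and 4.44. Of the leukocyte markers the lowest was PTPRC, at 1.84 with CRTC1 and 1.92 with empty vector, and the highest CD68, a macrophage gene, at 7.41 with CRTC1 and 7.48 with empty vector. At an unadjusted p under 0.05 among markers of other cell types were FCER1G (difference -0.31), CLDN5 (0.33) and PDGFRB (0.42, groups not overlapping), each with adjusted p = 0.837. Each had a mean below the median level of all genes, and their part in the results was not tested. These marker genes were singled out after their values were seen. The table holds no detection calls. Whether each array came from its own culture is not stated in the labels, so a p-value here covers the spread among these 8 samples alone, and that spread may be technical.

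Promoters are shown first for replication genes whose 2 groups of arrays did not overlap (MCM7, PCNA, RFC3 and RPA1), and for POLA1, which had the highest positive difference. RefSeq promoters of assembly GRCh38.p14, from 250 bases before to 50 after an annotated start, were matched for 43 of the 49 genes. MCM4, MCM5, GINS4, RPA2, RPA3 and CCNE2 were not matched. Each sequence runs 5′ to 3′ on the gene's own strand. Capitals mark 2 kinds of match on either strand. The first are E2F words (TTTCGCGC, TTTGGCGC, TTTGCCGC or TTTCCCGC), which can overlap one another on opposite strands. The second are the cAMP response element (CRE) TGACGTCA, to which CREB binds, and its half-site TGACG, which every full CRE contains. MCM7 lies on the minus strand (chr7:100101348-100101647, 1 of 3 annotated starts), as does PCNA (chr20:5126573-5126872, 1 of 2 starts). For a gene with several starts, one with an E2F word was chosen for printing. In MCM7 and in PCNA only 1 start, the one printed, held such a word. RFC3 (chr13:33817899-33818198), RPA1 (chr17:1829755-1830054) and POLA1 (chrX:24693668-24693967) lie on the plus strand.
MCM7: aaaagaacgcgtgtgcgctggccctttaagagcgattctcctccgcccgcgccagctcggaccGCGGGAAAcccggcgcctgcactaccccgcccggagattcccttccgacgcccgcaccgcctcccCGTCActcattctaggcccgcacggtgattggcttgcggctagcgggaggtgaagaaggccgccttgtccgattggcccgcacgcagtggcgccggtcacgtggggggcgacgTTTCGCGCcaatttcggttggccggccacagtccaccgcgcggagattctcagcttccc
PCNA: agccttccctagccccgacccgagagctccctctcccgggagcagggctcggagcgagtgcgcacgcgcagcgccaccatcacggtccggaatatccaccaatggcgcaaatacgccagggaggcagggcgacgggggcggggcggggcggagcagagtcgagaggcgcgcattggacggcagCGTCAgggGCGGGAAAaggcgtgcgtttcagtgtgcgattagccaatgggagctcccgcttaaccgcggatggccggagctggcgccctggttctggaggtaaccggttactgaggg
RFC3: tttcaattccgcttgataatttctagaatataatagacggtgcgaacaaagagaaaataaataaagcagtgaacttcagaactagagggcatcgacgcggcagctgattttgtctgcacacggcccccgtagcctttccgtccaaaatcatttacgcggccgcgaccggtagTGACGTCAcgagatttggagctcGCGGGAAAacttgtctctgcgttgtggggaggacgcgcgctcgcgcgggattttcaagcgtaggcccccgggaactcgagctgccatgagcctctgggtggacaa
RPA1: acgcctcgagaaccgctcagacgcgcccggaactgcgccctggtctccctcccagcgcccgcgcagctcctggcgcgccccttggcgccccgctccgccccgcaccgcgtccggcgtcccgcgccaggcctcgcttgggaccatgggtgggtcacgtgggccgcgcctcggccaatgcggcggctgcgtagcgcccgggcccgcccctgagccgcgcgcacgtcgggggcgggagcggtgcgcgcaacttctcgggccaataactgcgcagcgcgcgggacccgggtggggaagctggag
POLA1: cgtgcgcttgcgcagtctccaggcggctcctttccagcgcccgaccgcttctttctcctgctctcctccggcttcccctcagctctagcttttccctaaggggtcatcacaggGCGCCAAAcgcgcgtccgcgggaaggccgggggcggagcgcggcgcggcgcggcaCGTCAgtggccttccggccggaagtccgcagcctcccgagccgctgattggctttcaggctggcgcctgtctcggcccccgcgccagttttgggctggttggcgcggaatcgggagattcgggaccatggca

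At least 1 E2F word was present in 22 of the 43 matched genes, 51.2%, against 3.99% of the 27305 genes in the promoter table and 5.40% of its protein-coding genes. In 20 of the 22 genes a match began within 100 bases of a start. MCM7 held 2, at 187 and 9 bases before the start printed, PCNA held 1 at 59 and RFC3 1 at 55 bases before. POLA1 held 1 at 137 bases before its start, and RPA1 held none. A full CRE was found in 3 of the 43 genes, MCM10, RFC1 and RFC3, a share of 6.98% against 2.25% of all genes in the table and 3.0% of its protein-coding genes. A half-site was found in 21 of the 43, 48.8%, against 28.4% of all genes and 34.6% of protein-coding genes. These matches are counts of letters in a window and do not show that a factor binds there.

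**Figure D1:**
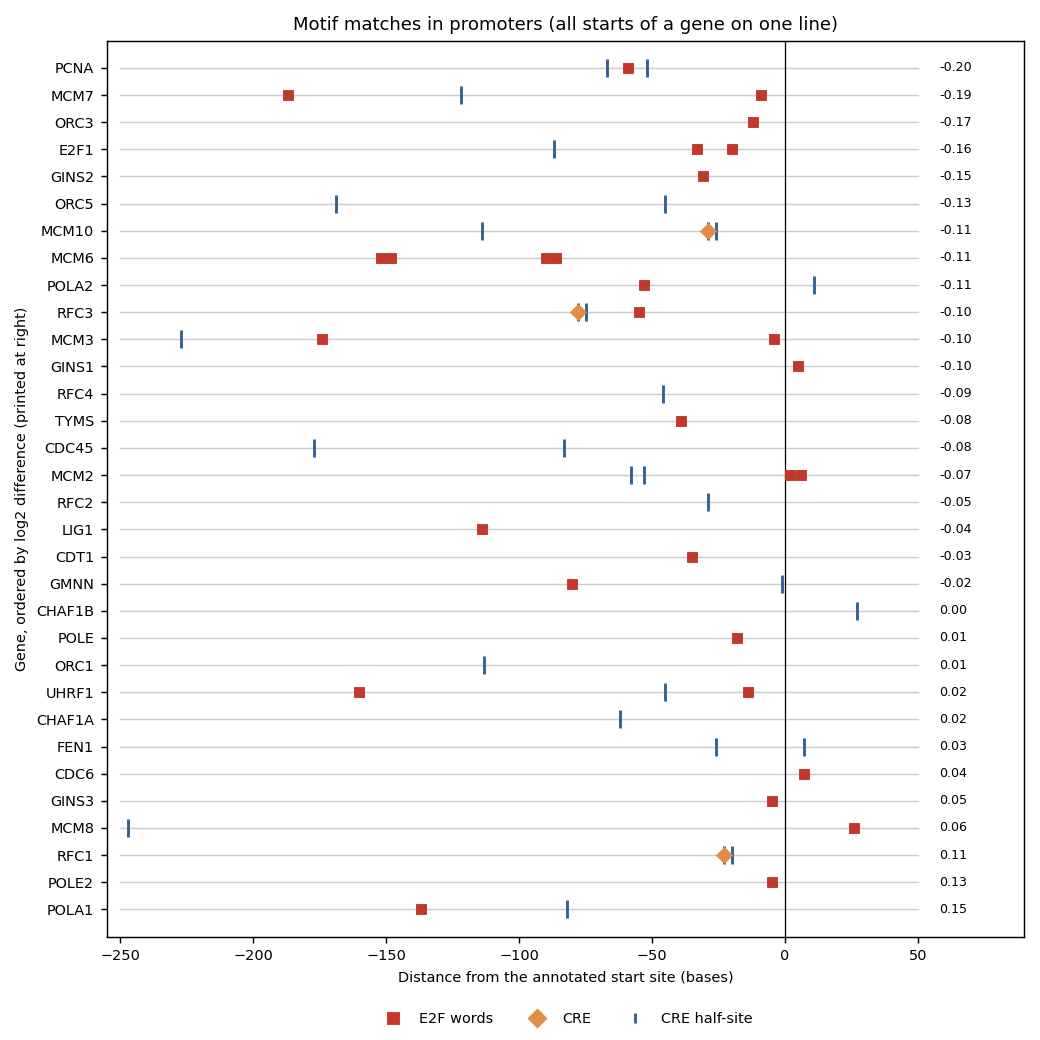
Positions of E2F words, CREs and CRE half-sites relative to annotated start sites (bases, negative before the start) in the 32 replication genes with at least 1 match, ordered by the log2 difference between CRTC1 and empty vector, which is printed at the right. Genes with E2F words stand at both ends, from PCNA at -0.20 to POLA1 at 0.15.

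None of the 49 replication genes passed the adjusted threshold in limma's moderated test (lowest adjusted p = 0.837). The differences were small, from -0.25 for GINS4 to 0.15 for POLA1 on the log2 scale. No 95% interval of a single gene reached below 0.726-fold or above 1.29-fold. The standard errors lay between 0.07 and 0.12, and the within-group SD had a median of 0.0908. At an unadjusted p under 0.05 stood 4 genes with lower values with CRTC1 and 0 with higher values. That is 8.16% of the 49 on the lower side, against 2.73% of all genes, and 3.2% of all genes were on the higher side. With 1 array left out the count of 4 fell to between 0, without empty vector replicate 2, and 3, without CRTC1 replicate 4. All 49 had a mean at or above the median level of all genes, and of genes at or above that level 2.89% were on the lower side.

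The sign of the differences leaned to one side. With CRTC1 36 of the 49 genes were lower and 13 higher, so 73.5% were lower, against 51.4% of all genes and 55.9% of genes at or above the median level. The median log2 difference was -0.08 over the 49 genes, against -0.01 over all genes and -0.02 over genes at or above the median level. In 6 genes all 4 CRTC1 arrays lay below all 4 empty vector arrays, a share of 12.2%. The same held for 2.06% of all genes and 2.95% of those at or above the median level. In 0 of the 49 the CRTC1 arrays all lay above, against 1.68% of all genes. The genes were chosen with earlier results of these data known, so this lean is not independent of that choice.

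**Figure D2:**
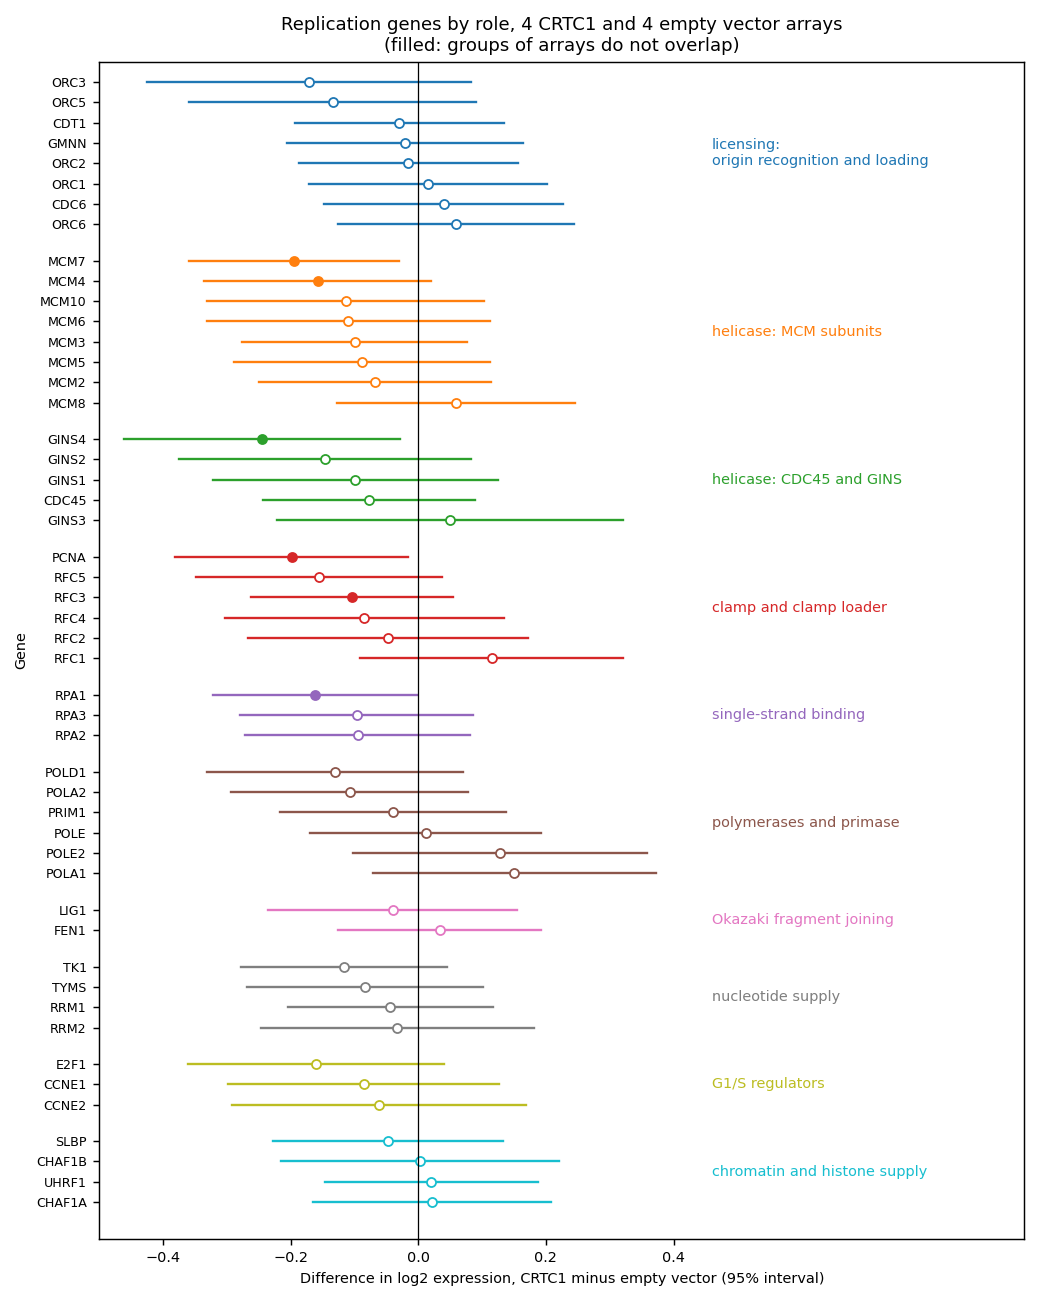
Difference in log2 expression, CRTC1 minus empty vector, with its 95% interval from limma (n = 4 arrays per group) for 49 replication genes grouped by role. Filled points are the 6 genes whose groups of arrays do not overlap, and all differences lie between -0.25 and 0.15.

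Origin licensing showed no common direction. The genes of the origin recognition complex, which marks the sites where replication can begin, had log2 differences of 0.01 (ORC1), -0.02 (ORC2), -0.17 (ORC3), -0.13 (ORC5) and 0.06 (ORC6). ORC3 lay at 7.27, 7.54, 7.68 and 7.56 with CRTC1 and at 7.50, 7.85, 7.74 and 7.64 with empty vector. Its groups overlapped, with CRTC1 replicate 1 lowest of all (adjusted p = 0.864). The loading factors CDC6 and CDT1 differed by 0.04 and -0.03, and GMNN, the gene of geminin, which blocks CDT1 after origins have fired, by -0.02. Of the 8 licensing genes 5 were lower and 3 higher, with a median of -0.02 and 0 at an unadjusted p under 0.05.

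The 6 genes of the replicative helicase ring, MCM2 to MCM7, were all lower with CRTC1, by -0.19 to -0.07 with a median of -0.10. MCM7 lay at 8.50, 8.52, 8.58 and 8.63 with CRTC1 and at 8.76, 8.77, 8.79 and 8.69 with empty vector. The groups did not overlap, and CRTC1 replicate 4 and empty vector replicate 4 came closest to each other. Its log2 difference was -0.19 with a standard error of 0.07, or 0.874-fold (limma unadjusted p = 0.0252, adjusted p = 0.837). MCM4 lay at 9.42, 9.56, 9.62 and 9.59 with CRTC1 and at 9.73, 9.76, 9.71 and 9.63 with empty vector. Here too all 4 CRTC1 arrays were below all 4 controls, but the margin was narrow, between CRTC1 replicate 3 and empty vector replicate 4 (difference -0.16, adjusted p = 0.845).

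The other ring genes had differences of -0.07 (MCM2), -0.10 (MCM3), -0.09 (MCM5) and -0.11 (MCM6), and the groups overlapped in each. MCM2 lay at 7.17 on CRTC1 replicate 1 and at 7.38, 7.37 and 7.38 on the other CRTC1 arrays, against 7.32, 7.39, 7.43 and 7.41 with empty vector. MCM6 lay at 8.70, 8.99, 8.97 and 9.00 with CRTC1 and at 8.87, 9.04, 9.05 and 9.15 with empty vector. In both genes CRTC1 replicate 1 stood well below the rest. The other 3 CRTC1 arrays lay above empty vector replicate 1 and below every other control. CRTC1 replicate 1 was the lowest of the 8 arrays in 5 of the 6 ring genes. Without that array the differences were -0.02 (MCM2), -0.05 (MCM3) and -0.04 (MCM6), while MCM7 stood at -0.18 and MCM4 at -0.11. Over the 6 ring genes empty vector replicate 1 averaged 8.43, against 8.52 to 8.53 on the other controls. Without that control instead, the differences were -0.09 (MCM2), -0.12 (MCM3) and -0.16 (MCM6). MCM10, which helps to activate the loaded helicase, differed by -0.11, and MCM8, the gene of a related helicase of recombination and repair that is no part of the ring, by 0.06.

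CDC45 and the GINS subunits join the MCM ring to form the active helicase. GINS4 had the largest difference of the 49 genes. It lay at 6.08, 5.88, 6.09 and 5.78 with CRTC1 and at 6.12, 6.30, 6.15 and 6.25 with empty vector. The groups did not overlap, but CRTC1 replicates 1 and 3 lay close under the lowest controls. The difference was -0.25 with a standard error of 0.10, or 0.844-fold (limma unadjusted p = 0.0306, adjusted p = 0.837). Its partners differed by -0.10 (GINS1), -0.15 (GINS2) and 0.05 (GINS3), and CDC45 by -0.08, with overlapping groups and adjusted p-values of 0.868 to 0.963. GINS3 thus had the other sign from the 3 subunits with which it forms a complex, within a standard error of 0.12. Without CRTC1 replicate 1 the differences of GINS1 and GINS2 were -0.02 and -0.08. Without empty vector replicate 1 instead, they were -0.13 and -0.20.

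PCNA, the sliding clamp that holds polymerases on DNA, lay at 8.84, 9.06, 9.02 and 9.09 with CRTC1 and at 9.19, 9.24, 9.18 and 9.19 with empty vector. The controls were tightly grouped, and all 4 CRTC1 arrays lay below them, CRTC1 replicate 1 by the widest margin. The difference was -0.20 with a standard error of 0.08, or 0.871-fold (limma unadjusted p = 0.0360, adjusted p = 0.837). Without CRTC1 replicate 1 it was -0.14 (unadjusted p = 0.0860).

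The clamp loader, replication factor C, opens PCNA and places it on DNA. Its 4 small subunits were lower with CRTC1, by -0.05 (RFC2), -0.10 (RFC3), -0.09 (RFC4) and -0.16 (RFC5), while the large subunit gene RFC1 was higher by 0.11. RFC3 lay at 8.52, 8.51, 8.54 and 8.41 with CRTC1 and at 8.61, 8.60, 8.60 and 8.58 with empty vector. The controls of RFC3 spanned a very small range, with an SD of 0.0111, and no CRTC1 array reached it (adjusted p = 0.868). RFC5 had adjusted p = 0.855 and overlapping groups.

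Replication protein A coats single-stranded DNA at the fork, and its 3 subunit genes were all lower with CRTC1. RPA1, the large subunit, lay at 7.60, 7.63, 7.67 and 7.72 with CRTC1 and at 7.81, 7.79, 7.80 and 7.87 with empty vector. The groups were apart, with every CRTC1 array below the lowest control. The difference was -0.16 with a standard error of 0.07, or 0.894-fold (limma unadjusted p = 0.0474, adjusted p = 0.837). RPA2 and RPA3 both differed by -0.10, with overlapping groups (adjusted p = 0.878 for each).

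**Figure D3:**
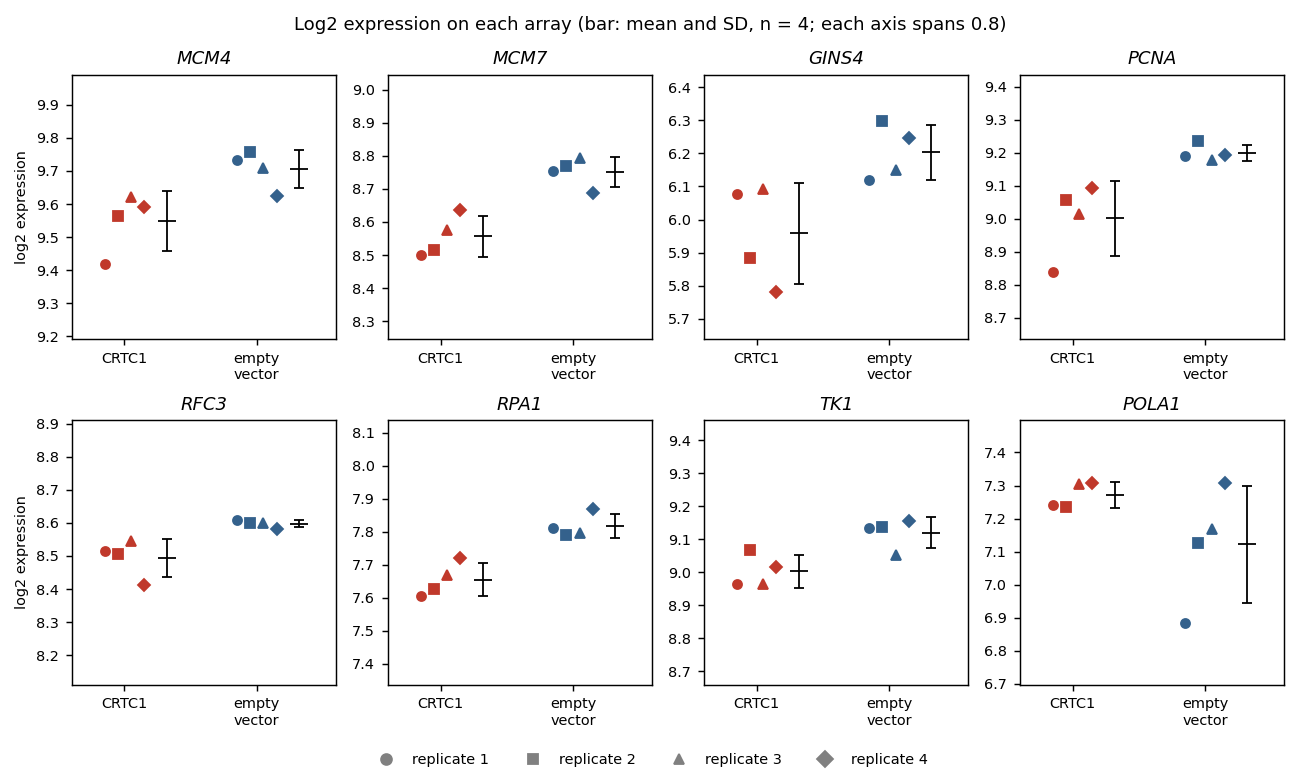
Log2 expression on each of 4 CRTC1 arrays (left of each panel) and 4 empty vector arrays (right) for the 6 replication genes whose groups do not overlap and for TK1 and POLA1, with the mean and SD beside each group. Marker shape gives the replicate number, and each axis spans 0.8. PCNA shows CRTC1 replicate 1 at 8.84, below the other CRTC1 arrays, and POLA1 shows empty vector replicate 1 at 6.88, below the other controls.

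The polymerase genes were divided in sign, 3 lower and 3 higher. POLA1, the catalytic subunit of polymerase alpha, which starts each new strand, lay at 7.24, 7.24, 7.30 and 7.31 with CRTC1 and at 6.88, 7.13, 7.17 and 7.31 with empty vector. The CRTC1 arrays lay close together, and empty vector replicate 4 lay level with the highest of them (difference 0.15, adjusted p = 0.864). Without empty vector replicate 1 the difference was 0.07. Its accessory subunit gene POLA2 differed by -0.11 and the primase gene PRIM1, which makes the RNA primers, by -0.04. POLD1, the catalytic subunit of the lagging strand polymerase delta, differed by -0.13. The leading strand polymerase epsilon genes POLE and POLE2 differed by 0.01 and 0.13. None of the 6 reached an unadjusted p under 0.05.

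Joining of Okazaki fragments, the short pieces of the lagging strand, needs the flap nuclease gene FEN1 and the ligase gene LIG1. FEN1 lay at 7.59, 7.59, 7.63 and 7.53 with CRTC1 and at 7.49, 7.54, 7.60 and 7.58 with empty vector. The 2 groups covered nearly the same range (difference 0.03, 95% interval -0.13 to 0.19). LIG1 differed by -0.04, with a 95% interval of -0.24 to 0.15.

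Genes of deoxynucleotide supply were all 4 lower by small amounts. TK1, the cytosolic thymidine kinase, lay at 8.96, 9.07, 8.96 and 9.02 with CRTC1 and at 9.13, 9.14, 9.05 and 9.16 with empty vector. Only CRTC1 replicate 2 reached above the lowest control of TK1 (difference -0.12, adjusted p = 0.863). The thymidylate synthase gene TYMS differed by -0.08, and the ribonucleotide reductase genes RRM1 and RRM2 by -0.04 and -0.03. TYMS lay at 9.78 on CRTC1 replicate 1 and between 9.99 and 10.02 on the other CRTC1 arrays, against 9.99 to 10.06 with empty vector.

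Among regulators of S phase entry, the transcription factor gene E2F1 lay at 6.84, 6.64, 6.59 and 6.70 with CRTC1 and at 7.00, 6.81, 6.76 and 6.84 with empty vector. Replicate 1 was the highest array in both groups, and CRTC1 replicate 1 lay within the range of the controls (difference -0.16, standard error 0.09, adjusted p = 0.857). Each CRTC1 array of E2F1 lay below the control of its own number (adjusted p = 0.671 in limma with a replicate block). The cyclin E genes CCNE1 and CCNE2, whose proteins activate CDK2 before S phase, differed by -0.09 and -0.06. Of the genes that rebuild chromatin behind the fork, the histone chaperone genes CHAF1A and CHAF1B differed by 0.02 and 0.0023, and UHRF1, which recruits the maintenance DNA methyltransferase, by 0.02. SLBP, whose protein binds histone mRNA, lay at 8.92, 9.03, 8.99 and 9.11 with CRTC1 and at 8.97, 9.07, 9.04 and 9.16 with empty vector. The groups of SLBP overlapped (difference -0.05, adjusted p = 0.939), although each CRTC1 array again lay below the control of its own number. In limma with a replicate block its adjusted p was 0.872. The same order by number held in ORC3, ORC5, MCM2, MCM3, MCM6, CDC45, GINS1, GINS2, RPA2, POLA2, TYMS and TK1, whose groups also overlapped. Where CRTC1 arrays all lie below the controls it holds of necessity, and its share over all genes was not counted. The median of the 4 chromatin genes CHAF1A, CHAF1B, UHRF1 and SLBP was 0.01.

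The lean was carried unequally by the arrays. Averaged over the 49 genes, the deviation from each gene's 8-array mean was -0.0954, -0.0234, -1.35e-05 and -0.00223 on CRTC1 replicates 1 to 4, and -0.0114, 0.0516, 0.0326 and 0.0483 on empty vector replicates 1 to 4. CRTC1 replicate 1 was thus lowest, and empty vector replicate 1 lay among the CRTC1 arrays. CRTC1 replicate 1 was the lowest of the 8 arrays in 23 of the 49 genes, 46.9%, against 16.8% of all genes. The same held for 13 of the 40 other replication genes measured, 6 of the 15 epithelial and intestinal markers and 4 of the 9 leukocyte markers. It held for only 4 of the 31 G1/S control genes, 0 of the 9 fibroblast markers and 1 of the 6 endothelial markers. Over all genes CRTC1 replicate 1 was also the highest array in 14.6%. This array also had the highest CRTC1 value, 12.52. In 16 of the 36 lower genes the difference shrank by more than 1.5 times, or changed sign, without this array. Without it 31 of the 49 genes were lower and the median difference was -0.05, and 2 genes, GINS4 and E2F1, were lower at an unadjusted p under 0.05. Without empty vector replicate 2 that count was 0, and without any other single array it was 1 to 3. Without empty vector replicate 1, 39 of the 49 genes were lower and the median difference was -0.08. In that fit the arrays of 13 genes did not overlap, where 3 control arrays make this easier to reach. On the lower side 4.31% of all genes did so. Whether a feature of CRTC1 replicate 1 other than the plasmid had a part in these values was not tested.

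**Figure D4:**
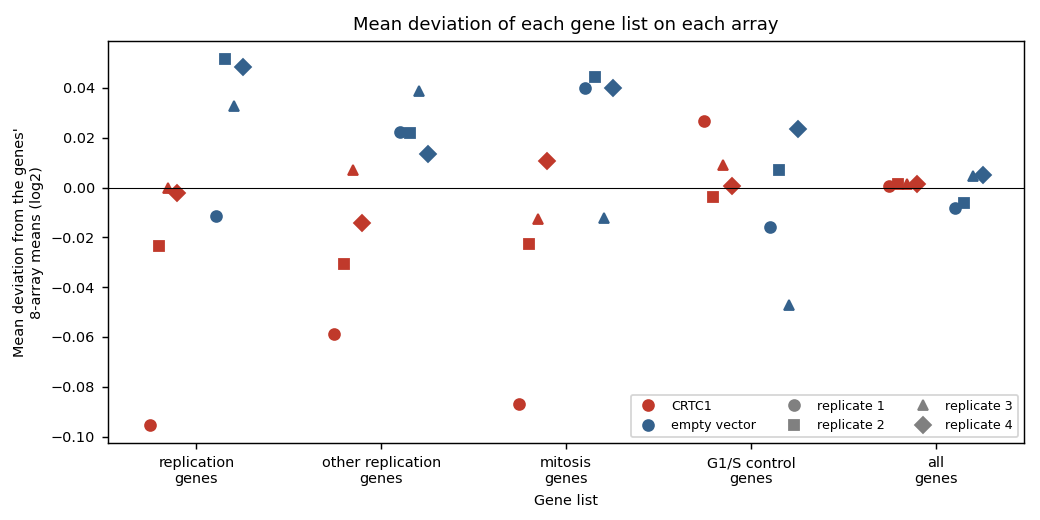
Mean deviation of the genes of each list from their own 8-array means (log2), for each CRTC1 array and each empty vector array, with marker shape giving the replicate number. For the replication genes CRTC1 replicate 1 lies at -0.10, and for all genes every array lies near 0.

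Other genes of the same pathway were set beside them. Of 41 further replication genes 40 were measured, 27 lower and 13 higher with CRTC1, with a median of -0.04. In limma 0 of these 40 stood at an unadjusted p under 0.05 in either direction, and 0 passed the adjusted threshold. The smallest p was that of FBXO5, whose protein holds back the anaphase-promoting complex during S phase, with a difference of -0.19 (adjusted p = 0.838). FBXO5 was the 1 gene of the 40, 2.5%, whose 2 groups of arrays did not overlap, against 2.06% of all genes on the lower side. MCM9, the partner of MCM8, differed by -0.21, the histone chaperone gene ASF1B by -0.22 and the helicase gene RECQL4 by -0.31, all with overlapping groups.

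G1/S control genes, such as cyclin-dependent kinases, their inhibitors and E2F and RB family members, leaned to neither side. Of 31 measured 14 were lower and 17 higher, with a median of 0.01. Past an unadjusted p of 0.05 stood only CDK6, a kinase that drives passage through G1, with a difference of 0.35 (adjusted p = 0.837). The inhibitor gene CDKN1B, which encodes p27, differed by 0.14 and its CRTC1 arrays all lay above the controls (adjusted p = 0.854). That held for 1 of the 31 genes, against 1.68% of all genes. CDK2 differed by -0.15 and MYBL2 by -0.13.

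Mitosis genes were set beside the replication genes because both are read as signs of proliferation. Of 33 measured 26 were lower and 7 higher, with a median of -0.05, against 36 of 49 and -0.08 for the replication genes. Past an unadjusted p of 0.05 stood BIRC5 alone, the gene of survivin, with a difference of -0.19 (adjusted p = 0.837). NDC80, a kinetochore gene, differed by -0.15, the ubiquitin-conjugating enzyme gene UBE2C by -0.15 and the cyclin gene CCNB1 by -0.13. In 4 of the 33, 12.1%, all CRTC1 arrays lay below all controls, against 12.2% of the replication genes. Of all genes 2.06% did so, and of those at or above the median level 2.95%. The 4 mitosis genes were BIRC5, NDC80, CDC20 and BUB3, of which CDC20 and BUB3 are named after their values were seen. CRTC1 replicate 1 was the lowest array in 19 of the 33 mitosis genes. No difference between the lists was tested.

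**Figure D5:**
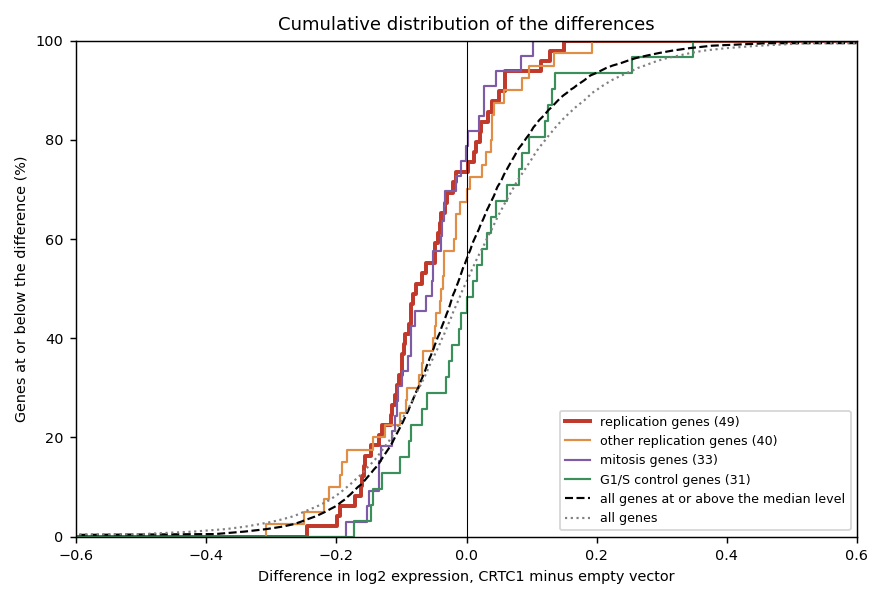
Cumulative share of genes (%) by difference in log2 expression, CRTC1 minus empty vector, for the 49 replication genes, 3 other lists, all genes and all genes at or above the median level. The curve of the replication genes crosses 0 at 73.5%, and those of genes at or above the median level and of all genes at 55.9% and 51.4%.

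Genes with and without the promoter words had overlapping differences. The 22 genes with an E2F word had a median log2 difference of -0.08, with 15 lower, and the 21 without one had a median of -0.05, with 15 lower. Among genes with a CRE half-site 13 of 21 were lower, and among those without 17 of 22. Of the 3 genes with a full CRE, RFC1 differed by 0.11, RFC3 by -0.10 and MCM10 by -0.11. No test was made between genes with and without a word.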

How the data were processed

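Biotin-labelled target was made from total RNA by Affymetrix's sense target method for whole transcripts, per the labels. The authors deposited log2 expression values for 23786 probe sets on 8 arrays. The submitters' processing notes name Partek alone. The steps from scan to value (background, summary, normalization) are not stated in those sources, and the log2 scale was read from the values. The arrays have near-equal medians, so a change common to most genes could be hidden. Probe sets were named from the platform annotation through Entrez identifiers (RefSeq, GRCh38.p14). Of them 22458 had 1 gene symbol and 1328 were unnamed here and left out of the main test.

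The CRTC1 and empty vector arrays were compared in a linear model fitted across all 22458 genes with limma 3.58.1 in R 4.3.3, and p-values were adjusted by the Benjamini-Hochberg method over all of them, with a threshold of 0.05. Intervals are at 95%. Precision is limited by the number of arrays, 4 per group. Promoters came from RefSeq. Alternatives were a replicate block, quantile normalization, centring, a filter on dim genes, another variance model, array weights, all probe sets, and leaving out arrays. Each of the 49 genes is named. Array values are given for genes at an unadjusted p under 0.05, genes whose groups do not overlap and the gene with the smallest p in each role, with MCM2, MCM6 and TYMS added after their values were seen. Of other lists, up to 4 genes with the smallest p are named. The members and lists were chosen with earlier results of these data known.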

Additional observations from a re-analysis of the deposited data

Results flagged for a closer look

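In 3 of 100 groups of 4 arrays, 1 array lay far from the other 3 by Dixon's test, where chance gives about 5. The groups were those of the 49 replication genes and CRTC1, and each of the 3 was CRTC1 replicate 1 as the lowest array. MCM2 lay at 7.17 there, against 7.37 to 7.38 on the other CRTC1 arrays. MCM6 lay at 8.70, against 8.97 to 9.00, and TYMS at 9.78, against 9.99 to 10.02.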

How the results depend on the processing

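No replication gene passed the adjusted threshold in any of the 19 alternatives run (lowest adjusted p = 0.652), and CRTC1 passed in each. The 36 lower genes numbered 31 (without CRTC1 replicate 1) to 39 with arrays left out, and the median difference ran from -0.0846 to -0.0468. Genes lower at an unadjusted p under 0.05, 4 in all arrays, numbered 2 with the replicate block (MCM7 and PCNA), 6 with a variance trend, and 0 (without empty vector replicate 2) to 3 with arrays left out, where fewer arrays were fitted. The share of all genes so called was 2.73% in all arrays, 3.26% with the block and 3.06% with the trend. It was 2.54% without empty vector replicate 2 and 2.99% without CRTC1 replicate 4, where the count was 3. Genes whose groups did not overlap, 6 in all arrays, numbered 4 with quantile normalization, 5 with median centring and 6 to 14 with arrays left out, 14 without replicate 1. Of all genes 2.06% lay lower and apart in all arrays, 1.83% with quantile normalization and 1.99% with centring. Without replicate 1 that share rose to 6.32%, since fewer arrays make it easier to reach. Of 931 values of single genes 31 changed sign, in 14 genes with a difference of at most 0.062 in size. With arrays left out their log2 differences ranged as follows: CCNE2 -0.1248 to 0.0127, CDC6 -0.0051 to 0.0774, CDT1 -0.0526 to 0.0032, CHAF1A -0.0175 to 0.0506, CHAF1B -0.0645 to 0.0628, GINS3 -0.0329 to 0.1214, GMNN -0.0524 to 0.0269, LIG1 -0.0827 to 0.0054, ORC1 -0.0574 to 0.0515, ORC2 -0.0517 to 0.0219, POLE -0.0289 to 0.0455, RFC2 -0.1053 to 0.0099, RRM2 -0.0697 to 0.0312 and UHRF1 -0.0135 to 0.0546. The causes were not tested. The labels do not say what arrays of equal number share. Deviations of arrays with the same number correlated at 0.25, 0.038, 0.064 and 0.12. Each array correlated best with the one of its own number, a hint of pairing from the data and not from the design. The main test did not treat the numbers as pairs, and the replicate block did. Without detection calls, signal over background could not be assessed.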
